A study of Mus musculus with 7 samples.

Results

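Genes of 7 families of developmental transcription factors were placed against the lamin-associated domains (LADs) of mouse embryonic fibroblasts. The members were all protein-coding genes of the mouse RefSeq gene table whose symbol was Fox followed by a letter and a digit, or Tbx, Lhx, Nkx, Dlx, Irx or the Six-family prefix followed by a digit. The rule used names and no measured value, and it gave 97 of 21887 protein-coding genes: 44 Fox, 13 Tbx, 8 Lhx, 14 Nkx, 6 Dlx, 6 Irx and 6 Six-family genes. The cells were cultured mouse embryonic fibroblasts, called iMEF in the labels. They were profiled by CUT&RUN, a method that frees the chromatin next to an antibody with a tethered nuclease. Of the 7 libraries, 2 were for Lamin B1, 2 for IgG as control, 1 for H3K14ac and 2 for H3K9me2, the last 2 made with separate antibodies. The lines were derived independently within a single mouse colony, and the labels name no treatment, age or allele for any group. The values below come from 1 merged list of 1437 LADs, for which wild type is given in the name of the list alone. That the list combines both Lamin B1 libraries is inferred from the word merged in that name and is not stated in the sources used here. Signal per library was not analysed here. Therefore no position has a replicate error, no test was made, and counts of members are set beside the same counts over all protein-coding genes. The list holds positions and no expression, so the labelled cell type was not checked against marker genes and the activity of the members in these cells was not measured.

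The nuclear lamina is a protein meshwork under the inner nuclear membrane, and Lamin B1 is a constituent of it. LADs are long stretches of chromatin in contact with the lamina, usually poor in genes and low in transcription, and many developmental genes move away from or towards the lamina as cells differentiate. Forkhead (Fox) proteins bind DNA through a winged-helix domain, T-box (Tbx) proteins through a T-box domain, and the Lhx, Nkx, Dlx, Irx and Six-family proteins through a homeodomain. Most of these factors are switched on in restricted regions of the embryo, and many of their genes lie in small clusters or next to wide intervals without other genes.

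Promoter sequences of 8 members are shown because the CpG content of promoters, set out at the end, ranged from 1 to 38 among the members in LADs. Each window runs from 250 bases before to 50 bases after the outermost transcription start listed for the gene in the RefSeq promoter table (GRCm38.p6, the build also called mm10), 5′ to 3′ on the strand of the gene, with CpG dinucleotides in capitals. Tbx22 (chrX:107667714-107668013, plus strand), Foxr2 (chrX:153118538-153118837, plus strand) and Lhx8 (chr3:154330511-154330810, minus strand) had the fewest CpG among members in LADs, with 1, 3 and 4. Foxa1 (chr12:57546062-57546361, minus strand), Irx4 (chr13:73260247-73260546, plus strand) and Nkx2-4 (chr2:147085296-147085595, minus strand) had the most, with 26, 31 and 38. For Foxa1, Foxr2, Irx4 and Nkx2-4 the listed start lay inside the annotated gene, at 1918, 4207, 908 and 94 bases from its outer end, so that their windows describe an internal start. Foxl2 (chr9:98955357-98955656, plus strand) and Foxf2 (chr13:31625566-31625865, plus strand) lay outside LADs and, of the members with a promoter entry, were the nearest to and the farthest from a border. Each had 27 CpG.
Tbx22: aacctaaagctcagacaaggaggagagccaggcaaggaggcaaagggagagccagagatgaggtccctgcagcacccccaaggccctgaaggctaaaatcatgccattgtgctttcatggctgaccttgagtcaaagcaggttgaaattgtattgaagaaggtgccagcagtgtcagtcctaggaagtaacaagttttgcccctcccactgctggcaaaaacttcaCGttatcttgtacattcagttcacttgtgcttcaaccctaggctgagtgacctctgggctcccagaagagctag
Foxr2: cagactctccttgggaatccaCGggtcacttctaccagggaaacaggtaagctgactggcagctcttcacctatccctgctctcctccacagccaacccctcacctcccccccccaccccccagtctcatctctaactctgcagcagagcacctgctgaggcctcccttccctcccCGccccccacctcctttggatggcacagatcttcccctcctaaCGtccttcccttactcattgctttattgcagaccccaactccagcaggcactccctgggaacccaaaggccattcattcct
Lhx8: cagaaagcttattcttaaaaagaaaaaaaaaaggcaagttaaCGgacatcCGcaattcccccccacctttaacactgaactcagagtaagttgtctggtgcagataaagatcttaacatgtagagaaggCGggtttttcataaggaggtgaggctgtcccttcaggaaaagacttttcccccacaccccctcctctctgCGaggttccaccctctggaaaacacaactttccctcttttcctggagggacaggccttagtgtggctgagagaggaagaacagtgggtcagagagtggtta
Foxa1: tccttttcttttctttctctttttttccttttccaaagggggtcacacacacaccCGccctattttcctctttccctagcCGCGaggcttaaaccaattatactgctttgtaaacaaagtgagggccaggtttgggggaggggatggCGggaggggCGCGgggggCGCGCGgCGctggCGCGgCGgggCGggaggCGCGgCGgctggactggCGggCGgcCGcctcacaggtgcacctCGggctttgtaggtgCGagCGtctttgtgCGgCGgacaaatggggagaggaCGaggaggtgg
Irx4: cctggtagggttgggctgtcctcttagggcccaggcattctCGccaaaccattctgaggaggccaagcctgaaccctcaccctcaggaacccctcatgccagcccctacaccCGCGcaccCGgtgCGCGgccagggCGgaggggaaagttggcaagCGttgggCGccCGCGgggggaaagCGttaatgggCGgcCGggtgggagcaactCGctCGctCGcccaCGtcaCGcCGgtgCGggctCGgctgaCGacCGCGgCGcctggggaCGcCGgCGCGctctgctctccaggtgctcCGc
Nkx2-4: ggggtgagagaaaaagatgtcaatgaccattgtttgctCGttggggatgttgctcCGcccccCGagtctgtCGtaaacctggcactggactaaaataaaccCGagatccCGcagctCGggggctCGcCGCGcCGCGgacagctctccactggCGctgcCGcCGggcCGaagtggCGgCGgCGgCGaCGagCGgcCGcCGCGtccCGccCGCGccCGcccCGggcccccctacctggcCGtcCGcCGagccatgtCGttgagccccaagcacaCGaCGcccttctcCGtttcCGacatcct
Foxl2: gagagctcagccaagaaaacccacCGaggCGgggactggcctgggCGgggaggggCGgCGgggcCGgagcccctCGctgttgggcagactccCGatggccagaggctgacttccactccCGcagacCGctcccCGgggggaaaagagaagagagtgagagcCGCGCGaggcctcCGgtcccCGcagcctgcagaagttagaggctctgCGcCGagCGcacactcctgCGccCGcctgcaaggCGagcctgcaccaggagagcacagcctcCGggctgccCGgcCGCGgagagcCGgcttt
Foxf2: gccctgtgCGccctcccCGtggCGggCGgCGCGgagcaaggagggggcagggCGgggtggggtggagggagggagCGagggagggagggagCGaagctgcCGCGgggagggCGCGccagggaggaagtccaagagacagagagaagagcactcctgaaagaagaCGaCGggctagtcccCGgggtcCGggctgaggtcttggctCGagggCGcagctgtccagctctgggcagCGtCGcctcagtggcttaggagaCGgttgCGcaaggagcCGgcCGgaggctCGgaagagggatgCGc

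Of the 97 members, 94 had their midpoint within the span of their chromosome, from the start of its first LAD to the end of its last. The other 3 lay beyond a span: Foxj1 and Foxk2 at 1713 and 6665 kb past the last LAD of chromosome 11, and Tbx10 at 3757 kb before the first LAD of chromosome 19. Of the 94, 17 (18.1%) had their midpoint in a LAD. Among all 21130 protein-coding genes in the spans the share was 24.6%, and it was 19.8% without the olfactory and vomeronasal receptor genes, so that the share of members was close to that of other genes. The 17 members occupied 14 LADs. The median length of the LAD around a gene was 1280.0 kb over the 17 members and 1785 kb over all protein-coding genes in LADs. No member was cut by a border: the 17 lay in LADs over their whole length and the other members had no base in a LAD. A border ran through 3.47% of all protein-coding genes. The genes were not matched for length, although a border falls more easily inside a long gene, and the difference was not tested. The transcription start was known for 65 members. Because no member was cut, it could only give the same placement as the midpoint, and it did.

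By family, 7 of 42 Fox genes lay in LADs, 2 of 12 Tbx, 1 of 8 Lhx, 4 of 14 Nkx, 2 of 6 Dlx and 1 of 6 Irx genes, and 0 of 6 Six-family genes. With so few genes in most families, the shares cannot be ranked. Fox genes spanned the widest range of distances outside LADs, from 3.10 to 7466 kb. Outside LADs, the median distance was 646 kb over the 77 members and 760 kb over all 15923 protein-coding genes outside LADs. The order of these medians depended on the processing: it turned to 1255 and 1146 kb with LADs of at least 500 kb, and the medians were 826 and 827 kb after joining across gaps of up to 250 kb. Within the spans, the members farthest from a border were Foxq1, Foxf2 and Foxc1 on chromosome 13, at 7466, 7397 and 7217 kb. Foxl1 and Foxc2 on chromosome 8 came next, at 4271 and 4260 kb. Among the nearest were Foxl2 at 3.10 kb, Irx6 at 10.3 kb, Foxd2 at 12.0 kb and Foxe3 at 29.7 kb. Domain lengths follow steps of 2.5 kb, so the placement of Foxl2 rests on little more than 1 step of the list. The error of a border is not known and may be larger than a step, so the other placements close to a border are uncertain as well.

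**Figure D1:**
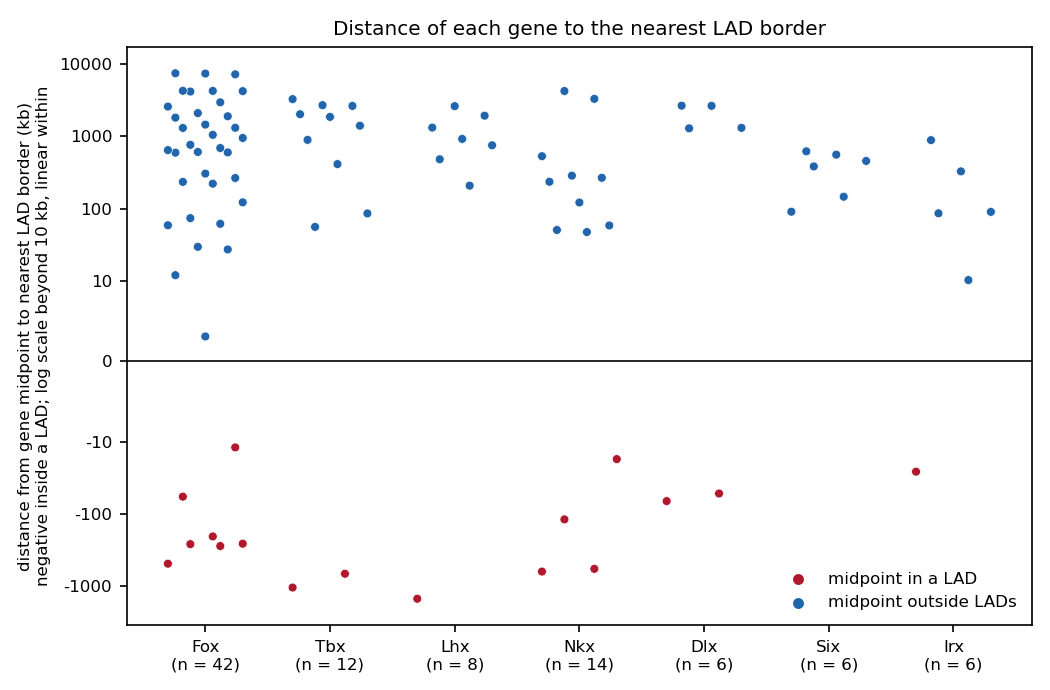
Each point is 1 of the 94 genes within a chromosome span. The vertical axis gives the distance in kb from its midpoint to the nearest LAD border, negative inside a LAD, on a log scale beyond 10 kb and linear within; the families are on the horizontal axis. The Six-family column has no point below the line, and the deepest gene is Lhx8 at 1490.3 kb from a border.

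The Fox genes in LADs were Foxa1, Foxa2, Foxd3, Foxi1, Foxi2, Foxp2 and Foxr2. Foxa1 and Foxa2 encode pioneer factors of endoderm that open chromatin in liver, lung and pancreas. Foxa1 (chromosome 12, 57540628 to 57548029) lay 262 kb inside a LAD of 1642.5 kb (57282563 to 58925057). Foxa2 (chromosome 2, 148042877 to 148046969) was the sole protein-coding gene of a LAD of 105.0 kb (147951943 to 148056942), the shortest that held a member, and its midpoint was 12.0 kb from the border. Foxa3, which acts in the same tissues, was outside at 306 kb from a border. The A group therefore had members in a long LAD, in a short LAD and outside.

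Foxd3, a factor of neural crest and of pluripotent cells, lay 278 kb inside a LAD of 692.5 kb on chromosome 4 (99243110 to 99935607), together with Atg4c, Alg6, Itgb3bp and Efcab7. The other D genes were outside: Foxd2 at 12.0 kb, Foxd4 at 59.0 kb and Foxd1, which marks kidney stroma, at 1818 kb from a border. Foxi1, a regulator of ionocytes in the kidney and inner ear, was 258 kb inside a LAD of 615.0 kb on chromosome 11 (33948067 to 34563064). Foxi2 was 57.7 kb inside a LAD of 567.5 kb on chromosome 7 (134902201 to 135469698). Foxi3, which acts in the ear placode, hair and teeth, was 222 kb outside. The neighbours of the first 2 were related as well. Foxi1 lay beside Dock2 and Insyn2b in its LAD, and Foxi2 beside the related genes Dock1 and Insyn2a.

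Foxp2, known for its part in vocal and motor circuits of the brain, was the longest member in a LAD. It extends from 14901349 to 15441977 on chromosome 6, all of it within a LAD of 1502.5 kb (14157103 to 15659597) that held Ppp1r3a as its other protein-coding gene. Its paralogues were all outside: Foxp3, the regulator of regulatory T cells, at 596 kb, Foxp4 at 646 kb and Foxp1 at 765 kb from a border. On X, Foxr2 was 205 kb inside a LAD of 420.0 kb (152918846 to 153338844), and its relative Foxr1 on chromosome 9 was 2099 kb outside.

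A list of 12 Fox genes with broad expression (Foxj2, Foxj3, Foxk1, Foxk2, Foxm1, Foxn2, Foxn3, Foxo1, Foxo3, Foxo4, Foxp1 and Foxp4) had 11 genes within spans, and 0 of the 11 lay in a LAD. The other Fox genes had 7 of 31 in LADs (22.6%), beside 24.6% of all protein-coding genes. The list was chosen with earlier results of these data known, and expression was not measured here. A link between broad expression and placement can therefore not be drawn from this split, which was not tested. The broadly expressed genes were not uniformly far from LADs. Foxn2 was at 61.8 kb, Foxj2 at 74.0 kb and Foxk1 at 122 kb from a border. Foxm1, a driver of cell division, was at 235 kb. The Foxo genes, effectors of insulin signalling, were among the more distant, with Foxo4 at 1051 kb, Foxo1 at 1316 kb and Foxo3 at 2962 kb.

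Among T-box genes, Tbx18 and Tbx22 were deep in LADs. Tbx18, a factor of the epicardium, the sinus node and ureter mesenchyme, lay 672 kb inside a LAD of 1652.5 kb on chromosome 9 (86736311 to 88388805), and the whole of its 500 kb on either side was in the domain. Tbx22, which is needed for the palate, lay 1043 kb inside a LAD of 2455.0 kb on X (106266494 to 108721485). Tbx15, a near relative of both that acts in the limb skeleton and dermis, was outside in a gap of 315.0 kb, 86.0 kb from a border. Tbx20, a heart factor, was in the shortest gap that held any member, 125.0 kb on chromosome 9, with borders at 56.1 kb on the lower and 69.0 kb on the upper side. The limb and heart genes Tbx2, Tbx3, Tbx4 and Tbx5 lay in gaps of 6040.0 kb and 7825.0 kb, at 1861 to 2703 kb from a border. Tbx21, the T-bet factor of T helper cells, was at 3276 kb, the farthest of its family within a span.

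Of the LIM-homeobox genes, Lhx8 lay in a LAD and 7 did not. Lhx8, a factor of forebrain cholinergic neurons and of teeth, was 1490.3 kb inside a LAD of 7065.0 kb on chromosome 3 (152828127 to 159893104), the deepest placement of any member, with 24 other protein-coding genes in the same LAD. Lhx6, its closest relative, was outside at 208 kb from a border, the nearest of the Lhx genes outside LADs. The others ranged from 483 kb for Lhx9 to 2620 kb for Lhx5. None of the Lhx genes lay in a gap shorter than 1057.5 kb.

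The 4 Nkx genes in LADs came from a pair of related loci. On chromosome 12, Nkx2-1, a master factor of thyroid, lung and ventral forebrain, and Nkx2-9 shared a LAD of 1280.0 kb (55907568 to 57187563) with Pax9, Mbip and Slc25a21, at 627 and 575 kb from a border. On chromosome 2, Nkx2-4 and Nkx2-2, a factor of the ventral neural tube and pancreatic islets, shared a LAD of 657.5 kb (147066946 to 147724443) with Pax1, at 17.4 and 119 kb from a border. Each locus was followed at higher coordinates by a Foxa gene in the next LAD. Foxa1 lay 932 kb beyond Nkx2-9, with 89.8% of the interval in LADs, and Foxa2 lay 859 kb beyond Nkx2-2, with 73.5% in LADs. The order Nkx, Nkx, Pax and Foxa is thus placed in LADs at both loci, although Foxa2 sits in a separate short domain.

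The 10 Nkx genes outside LADs were mostly near them, with a median distance of 252 kb. Nkx6-1, which specifies motor neurons and beta cells, was 47.5 kb from a border, Nkx1-2 was at 50.7 kb, Nkx6-2 at 58.6 kb and Nkx3-2, a factor of cartilage and spleen, at 122 kb. In contrast, Nkx2-5, the heart factor, and Nkx1-1 were at 3308 and 4240 kb. Over the whole family, the median share of bases in LADs within 500 kb on each side was 40.3%, beside 6.44% over the members and 8.75% over all protein-coding genes.

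The 3 Dlx gene pairs differed. Dlx5 and Dlx6, which pattern the jaw and promote bone formation, lay 52.2 and 66.5 kb inside the upper end of a LAD of 1287.5 kb on chromosome 6 (5644630 to 6932125), which also held Dync1i1, Slc25a13 and Sem1. Dlx1 and Dlx2, factors of forebrain interneurons, lay in a gap of 6025.0 kb at 2661 and 2647 kb from a border. Dlx3 and Dlx4 were in a gap of 14640.0 kb at 1292 and 1313 kb. No LAD base lay within 500 kb of these 4 genes.

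None of the Six-family genes was in a LAD. Six6, an eye and pituitary factor, and Six4, a factor of muscle and sensory organs, shared a gap of 1622.5 kb on chromosome 12, at 457 and 622 kb from a border. Six3, a forebrain and eye factor, and Six2, which maintains nephron progenitors, were the sole protein-coding genes of a gap of 317.5 kb on chromosome 17 (85448818 to 85766316), at 146 and 90.8 kb. Six5 was at 384 kb.

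The Irx genes form a pair of clusters, and these were placed differently. On chromosome 13, Irx1, Irx2 and Irx4 each lay in an interval without any other protein-coding gene. Irx1 (71958232 to 71963723) was in a gap of 242.5 kb (71870615 to 72113113) and Irx2 (72624430 to 72634196) in a gap of 185.0 kb (72530613 to 72715611), at 90.4 and 86.3 kb from a border. Irx4 (73259589 to 73269622), a gene of the heart ventricle, was in a LAD of 575.0 kb (72715612 to 73290609), 26.0 kb from its upper border. Between the midpoints, LADs took up 35.2% of the interval from Irx1 to Irx2 and 86.4% of that from Irx2 to Irx4. On chromosome 8, Irx3, Irx5 and Irx6 shared a gap of 1887.5 kb with no LAD between them, at 888, 328 and 10.3 kb from its upper border. Irx6 thus sat at the edge of the next LAD while Irx3 had no LAD base within 500 kb.

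Members with midpoints at most 500 kb apart formed 15 clusters, 12 of 2 genes and 3 of 3, with 33 genes in all. All 15 clusters lay within a single LAD or a single gap, and 0 were divided between a LAD and its outside. Genes this close mostly share an interval: the 18 neighbouring pairs of members in these clusters all did, and so did 93.1% of the 20111 neighbouring pairs of protein-coding genes with midpoints at most 500 kb apart. The Irx genes of chromosome 13 are farther apart than this limit, with 635 kb between the midpoints of Irx2 and Irx4. They are therefore not among the clusters, although they were divided between a LAD and its outside. That division depended on the processing: joining across gaps of up to 250 kb placed Irx1 and Irx2 in LADs as well. The clusters in LADs were Dlx5 with Dlx6, Nkx2-1 with Nkx2-9, and Nkx2-4 with Nkx2-2. Among the 12 outside, Foxq1, Foxf2 and Foxc1, factors of mesenchyme, vessels and the eye, shared the longest gap of all with a member, 15777.5 kb. Foxf1, Foxc2 and Foxl1 shared a gap of 11687.5 kb. At the other end, Foxd2 and Foxe3, a lens gene, shared a gap of 222.5 kb on chromosome 4 with Cmpk1, Stil, Tal1 and Pdzk1ip1. Neighbours at this distance are not independent placements; counting each cluster once gave 14 of 76 in LADs (18.4%).

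Some members outside LADs sat in short gaps between domains. Of the 77, 12 (15.6%) were in gaps of at most 350 kb, beside 6.73% of all protein-coding genes outside LADs. At a limit of 250 kb the count was 7 (9.09%), beside 4.85%, and at 500 kb it was 14 (18.2%), beside 9.67%. These limits were chosen after the values were seen, and the 12 genes lay in 10 gaps. Among them were Foxd2, Foxe3, Foxn2, Irx1, Irx2, Nkx1-2, Nkx3-2, Six2, Six3, Tbx15 and Tbx20. Nkx3-2 lay in a gap of 270.0 kb with Rab28 and Bod1l, and LADs covered 73.0% of the 500 kb on either side of it. The corresponding cover was 65.2% for Foxe3, 63.5% for Foxd2, 63.3% for Irx2 and 30.1% for Tbx20, so a short gap did not always go with wide domains around it.

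Being alone in a LAD or gap was recorded for 6 members, among them Foxa2 and Irx4 in LADs, and Irx1, Irx2 and Tbx20 in gaps. This was 6.38% of the 94 members, and 2.96% of all protein-coding genes were alone. Within gaps of at most 350 kb, 4 of the 12 members were alone (33.3%), beside 21.8% of all protein-coding genes in such gaps.

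**Figure D2:**
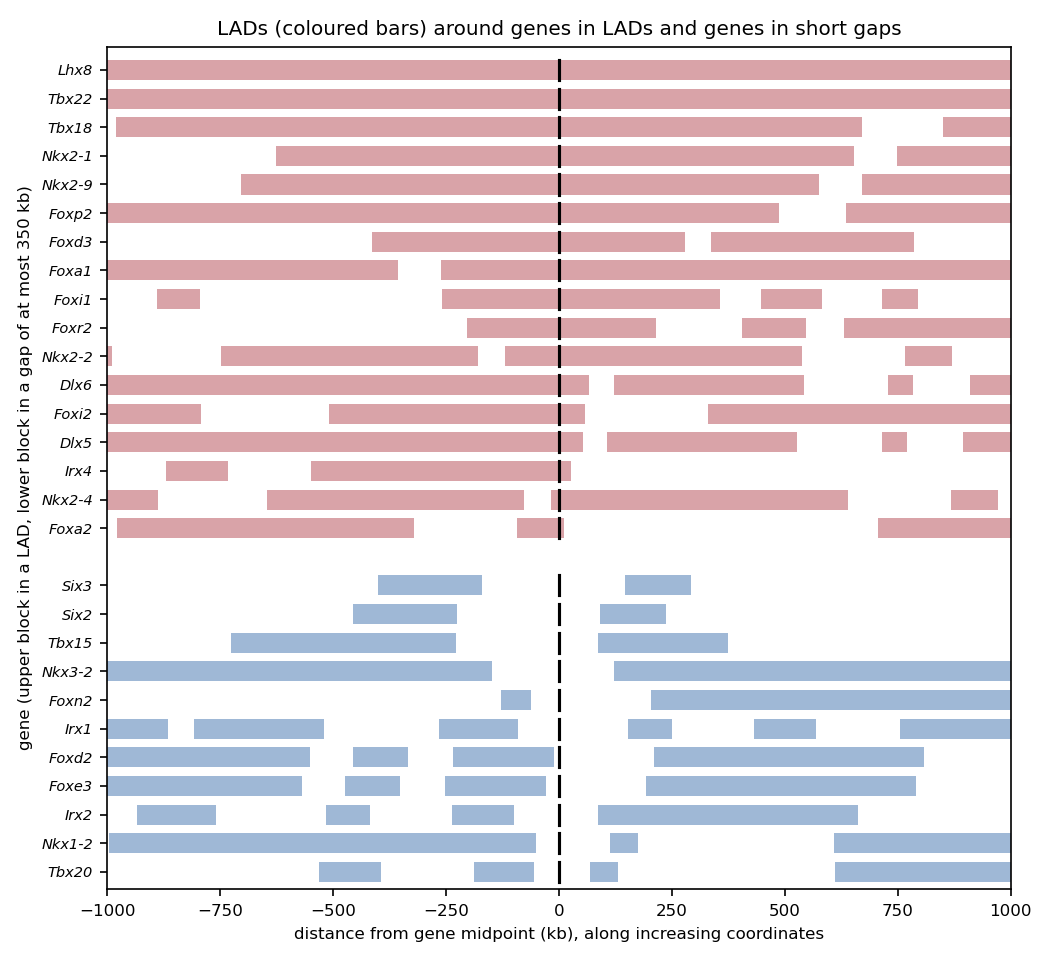
Coloured bars are LADs within 1000 kb of the gene midpoint (black tick at 0), with distance in kb on the horizontal axis and genes on the vertical axis. The upper block holds the 17 genes in LADs, ordered from the deepest (Lhx8) to Foxa2 at 12.0 kb from a border, and the lower block 11 genes in gaps of at most 350 kb, down to Tbx20 in a gap of 125.0 kb.

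LAD cover around the members was close to that around other genes. For members outside LADs, LADs covered 5.12% of bases within 100 kb of the midpoint on average and 13.7% at 100 to 200 kb. The corresponding values over all protein-coding genes outside LADs were 3.36% and 9.67%. At 900 to 1000 kb they were 29.4% and 28.4%. A border within 100 kb was found for 16 of the 77 members outside LADs (20.8%), beside 12.6% of all such genes, but at a limit of 50 kb it was 7.79% beside 6.27%, and at 200 kb 24.7% beside 21.5%. In 45 of the 77 (58.4%) no LAD base lay within 500 kb, beside 60.9%. In 22 (28.6%) LADs took up at least 25% of these 500 kb flanks, beside 22.8%. The limits on border distance and on cover were also chosen with the values known. The members in LADs had a mean cover of 89.6% within 100 kb, beside 93.1% around all protein-coding genes in LADs. Farther out their cover was above that of all such genes in some bins and below it in others, with 83.8% beside 74.2% at 400 to 500 kb, 56.0% beside 69.3% at 600 to 700 kb and 65.7% beside 63.8% at 900 to 1000 kb.

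**Figure D3:**
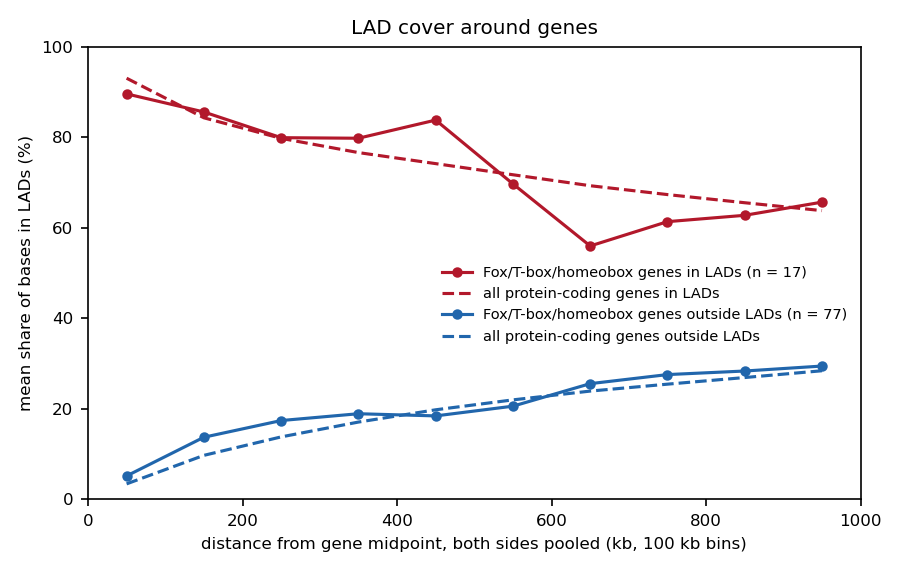
Mean share of bases in LADs (%, vertical axis) by distance from the gene midpoint (kb, horizontal axis, bins of 100 kb with both sides pooled). Solid lines with points are the 17 members in LADs and the 77 outside, and dashed lines are all protein-coding genes of the same placement; outside LADs the solid line is above the dashed one up to 400 kb and runs close to it farther away.

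Members had few close neighbours. The distances to the next protein-coding gene on either side, leaving out genes that overlap the member, summed to a median of 185 kb, beside 49.1 kb for all protein-coding genes. The median number of other protein-coding genes within 500 kb was 8, beside 15. Genes with wide flanks were more often in LADs in the genome as a whole: the share rose from 14.1% with flanks under 50 kb to 29.8% at 50 to 200 kb, 40.1% at 200 to 500 kb and 51.4% at 500 kb or more. Members were below these shares in each class, with 0 of 22, 5 of 29 (17.2%), 8 of 28 (28.6%) and 4 of 15 (26.7%). Without the olfactory and vomeronasal receptor genes the shares of all genes were 8.29%, 23.4%, 39.0% and 51.2%. The classes were chosen after the values were seen, they hold few members each, and the differences were not tested.

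In the widest class, the 4 members in LADs were Foxa1, Foxa2, Irx4 and Tbx18. Members of that class outside LADs included Irx1, Irx2, Irx3 and Irx5, Nkx6-1, Tbx3, Tbx15, Foxo1 and Foxp1. Tbx3, with 905 kb free of protein-coding genes on its lower side, was 1861 kb from a LAD. Foxo1, with 632 kb free on its upper side, was at 1316 kb. For Tbx3 and Foxo1 the wide flanks themselves were free of LADs, whereas LADs covered 63.3% of the 500 kb on either side of Irx2.

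**Figure D4:**
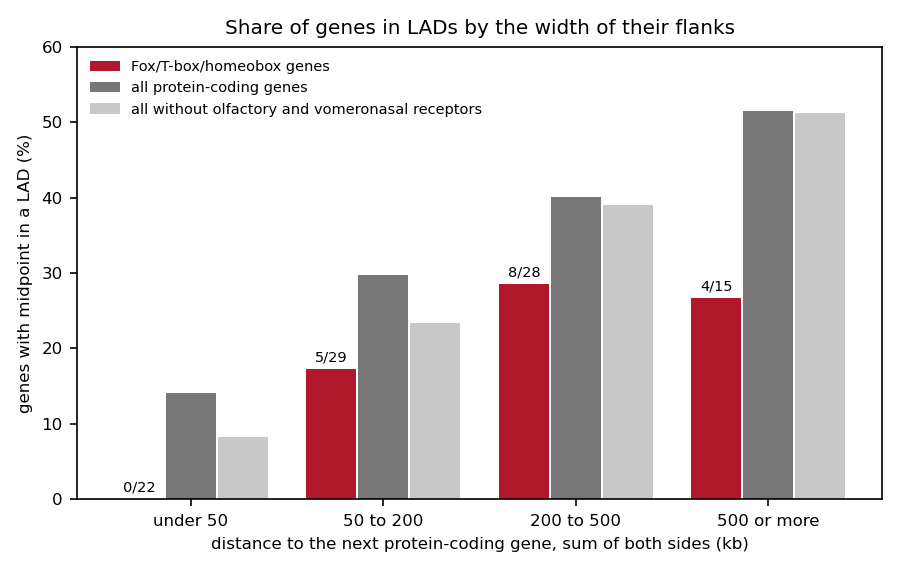
Share of genes with the midpoint in a LAD (%, vertical axis) by the summed distance to the next protein-coding gene on both sides (kb, horizontal axis). Red bars are the members with their counts, dark grey bars all protein-coding genes and light grey bars all without olfactory and vomeronasal receptors; the red bar is the lowest in all 4 classes.

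Grouped by where the factors act, lists that overlap in part gave 3 of 21 mesenchyme and limb genes in LADs (Dlx5, Dlx6 and Tbx18; 14.3%), 5 of 21 neural genes (Foxd3, Foxp2, Lhx8, Nkx2-1 and Nkx2-2; 23.8%), 2 of 10 heart genes (Irx4 and Tbx18; 20%) and 4 of 7 endoderm genes (Foxa1, Foxa2, Nkx2-1 and Nkx2-2; 57.1%). The shares of the first 3 lists are at or below the 24.6% of all protein-coding genes. The endoderm list rests on the 2 Nkx and Foxa loci described above. Its other genes were Nkx6-1 at 47.5 kb, Foxa3 at 306 kb and Foxe1, a thyroid factor, at 1309 kb from a border. The mesenchyme and limb genes outside LADs had a median distance of 1839 kb, and the neural genes outside LADs one of 645 kb. These lists were also chosen with earlier results of these data known, and their differences were not tested.

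Related factors under other symbols gave similar counts. Of 17 T-box, LIM-homeobox and NK-like genes within spans (among them Eomes, Tbr1, Isl2, Lmx1b, Msx1 and Msx2), Isl1 and Lmx1a lay in LADs (11.8%). Of other developmental families, Pax genes had 4 of 9 in LADs (Pax1, Pax3, Pax6 and Pax9), Pou genes 6 of 16, Sox genes 5 of 19, Gata genes 0 of 6 and Hox genes 0 of 39. The share over all protein-coding genes was 24.6%, or 19.8% without the receptor genes. Neighbouring genes of a family, as in the Hox clusters, were each counted here and are not independent placements. These differences were not tested. Pax1 and Pax9 are the Pax genes that share LADs with the Nkx pairs.

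Promoter windows were available for 63 of the 94 members. Members in LADs had a median of 13.5 CpG per window (range 1 to 38, 14 genes) and a median GC content of 59.0%. Members outside had 21.0 CpG (range 6 to 42, 49 genes) and 65.3% GC. The ranges overlapped. Over all protein-coding genes the medians were 2.00 CpG in LADs and 17.0 outside. At least 10 CpG, a limit chosen after the values were seen, were found in 9 of the 14 members in LADs (64.3%), beside 22.2% of all protein-coding genes in LADs and 30.1% without the receptor genes. Outside LADs it was 41 of 49 members (83.7%), beside 68.4%. The listed start was at the outer end of the annotated gene for 8 of the 14 members and for 35 of the 49. Over these alone, at least 10 CpG were found in 4 of 8 members in LADs (50%), beside 13.9% of all such genes in LADs, and in 32 of 35 outside (91.4%), beside 64.0%.

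The 9 CpG-rich promoters in LADs were those of Foxa1, Foxa2, Foxd3, Irx4, Nkx2-1, Nkx2-2, Nkx2-4, Nkx2-9 and Tbx18. The 5 with fewer were those of Foxi1, Foxi2, Foxr2, Lhx8 and Tbx22. The sequences printed above show the extremes: the capitals crowd the window of Nkx2-4 and occur once in that of Tbx22. Foxl2 and Foxf2, at 3.10 and 7397 kb outside a LAD, had the same count of 27. The motif TATAAA, searched on both strands, was found in 5 of the 63 windows (7.94%; Foxa3, Foxp3, Lhx3, Tbx4 and Tbx6, all outside LADs), beside 13.5% of all promoters. By placement it was in 5 of 49 windows of members outside LADs (10.2%), beside 9.54% of all protein-coding genes outside, and in 0 of 14 in LADs, beside 25.1% of all in LADs and 19.0% without the receptor genes. CCAAT, also on both strands and not overlapping TATAAA by its letters, was found in 29 of 63 (46.0%), beside 39.2%. It was in 24 of 49 outside LADs (49.0%), beside 38.5%, and in 5 of 14 in LADs (35.7%), beside 41.3%. These shares rest on few windows and were not tested.

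**Figure D5:**
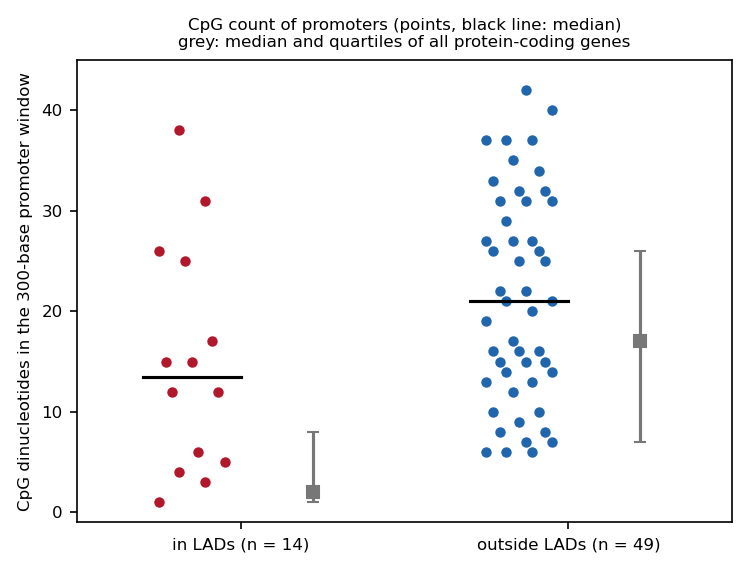
Number of CpG dinucleotides in the 300-base promoter window (vertical axis) for 14 members in LADs and 49 outside (horizontal axis). Points are genes, black lines medians (13.5 and 21.0), and grey squares with bars the median and quartiles over all protein-coding genes of the same placement (medians 2.00 and 17.0).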

How the data were processed

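CUT&RUN libraries were aligned to mm10 with Bowtie2, per the submitters' processing notes. How domains were called, and whether IgG or the E. coli spike-in entered, is not given in the sources used here. The authors deposited 1 merged list of 1437 domains giving the first and last position of each in base pairs. The deposited score column held 0 in every line and was not used. Lengths followed steps of 2.5 kb (100% within 125 bp of such a step), and no gap was under 52.5 kb, which sets the shortest gap that a gene can occupy. The read depth is unknown.

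Gene positions came from the RefSeq table of GRCm38.p6 and start sites from its promoter table, matched by gene ID (65 of 97 members). Each gene was placed by its midpoint with Python 3.11.15, pandas 2.3.3 and numpy 2.4.6. The placement was tested on simulated data (1000 genes, 0 placed wrongly). Named were all members in LADs, the 5 nearest to and farthest from a border outside, all clusters, and other members by family; some members enter the counts and are not reported here by name. Members, lists and limits were chosen with earlier results of these data known. Alternatives were other gene placements, LADs of at least 100 or 500 kb, and joining across gaps of up to 100 or 250 kb.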

Additional observations from a re-analysis of the deposited data

How the results depend on the processing

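The share of members in LADs (18.1%) lay between 16% and 25.5% under 10 alternatives. Not all of these could change it. As no member was cut by a border, placement by either end, the whole gene or any overlap had to give the same share. Placement by transcription start could differ only through the members without an entry. LADs of at least 500 kb removed Foxa2 and Foxr2. Joining across gaps of up to 250 kb added 7 members, among them Foxd2, Foxe3, Irx1, Irx2, Nkx1-2 and Tbx20. The share of Dlx genes became 0% with transcription start sites because Dlx5 and Dlx6 have no entry in the promoter table. Over all protein-coding genes the share of 24.6% became 25.7% by either gene end, 22.5% by the whole gene, 26.0% by any overlap, 21.5% with LADs of at least 500 kb, 25.4% and 28.3% with joining across 100 and 250 kb, and 19.8% without receptor genes. The median distance of all genes outside LADs (760 kb) became 821, 1146 and 827 kb with LADs of at least 100 kb, of at least 500 kb and with joining across 250 kb. With LADs of at least 500 kb the median over members rose from 646 to 1255 kb, above that of all genes. The median LAD cover around all genes (8.75%) became 0% within 250 kb, 24.1% within 1000 kb, and 6.16% and 0% with LADs of at least 100 and 500 kb. Around members the median cover (6.44%) became 0% within 250 kb and 20.4% within 1000 kb. It stayed at 6.44% with LADs of at least 100 kb, then above that of all genes, and became 0% with LADs of at least 500 kb. Beyond the share of Dlx genes, other placements, minimum lengths, joins and windows left the members' values within the binomial interval of the main value. That interval treats genes as independent placements and is wide for families of 6 to 14 genes. A value within it can still have moved far, so it does not show that a result is stable. Irx genes, for example, went from 1 of 6 to 3 of 6 in LADs with joining across 250 kb. The limits on gap length and border distance added after seeing the data are given beside their counts above. The share within 50 kb of a border (7.79%) and that in gaps of at most 250 kb (9.09%) fell outside the interval of the main value. Starts at the outer end of the annotated gene, also added after seeing the data, are given beside the CpG counts. No paired analysis was possible because the merged list gives no values per library, and leaving out a library was not run for the same reason.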
